A study of Homo sapiens with 9 samples.

Results

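Gene expression in A549 cells carrying either of 2 HES-directed short hairpin RNAs, averaged, was compared with that in cells labelled as the same line with a control hairpin. The mean of the shHES1 and shHES4 groups was set against shCtrl in 1 fit of all 9 libraries. Of 16903 genes tested, 970 passed an adjusted p of 0.05 in this averaged contrast. A gene was counted as shared when it passed, had the same sign in each hairpin group, and had all 6 hairpin libraries on the same side of all 3 control libraries. There were 514 shared genes, 278 higher and 236 lower with the HES hairpins. These values chose the genes, so the counts and sizes of the shared genes describe the samples and are not tests of their own.

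A549 is an established human lung adenocarcinoma line. Each of the groups, shCtrl, shHES1 and shHES4, had 3 libraries, made from TRIzol-extracted total RNA with a SMARTer kit, and the totals lay between 22.8 and 27.6 M estimated counts. By its title the series asks how HES1 and HES4 affect expression in these cells. The labels name 1 hairpin per group, with no hairpin sequence, delivery route, duration or clone, and do not say that the libraries came from separate cultures. The p-values therefore measure the spread between these libraries, which may be technical. With a single control hairpin, a change shared by the HES hairpin groups and a peculiarity of the shCtrl cells cannot be told apart.

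Cells cut a short hairpin RNA down to a small guide that leads the silencing complex to matching transcripts. HES1 and HES4 belong to the hairy and enhancer of split family of basic helix-loop-helix proteins, which repress transcription together with Groucho-type corepressors. Notch signalling switches on HES1, which in many tissues holds back differentiation. Proteins of this family bind the N-box (CACNAG) and class C sites (CACGNG) in DNA.

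HES4 transcript, the target named for the shHES4 libraries, was lower in each HES hairpin group. HES4 (ENSG00000188290) lies on chromosome 1 from 998962 to 1000172, minus strand, in GENCODE 29 on GRCh38. It was at 21.3, 25.4 and 27.7 CPM (counts scaled to a common library size) in shCtrl. The libraries labelled shHES1 had 18.3, 15.2 and 15.7 CPM and the shHES4 libraries 20.4, 17.1 and 16.6 CPM. All 6 hairpin libraries lay below all controls, the nearest values being 20.4 and 21.3 CPM. The averaged log2 fold change was -0.52 ± 0.09 (SE; edgeR quasi-likelihood adjusted p = 0.00115), and the call held under every alternative tried. The log2 difference of shHES1 minus shHES4 was -0.13 (95% interval -0.35 to 0.09; edgeR quasi-likelihood adjusted p = 0.456), so the fall of HES4 was not shown to be larger with its own hairpin.

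HES1 did not move with its label. HES1 (ENSG00000114315, chromosome 3 from 194136145 to 194138732, plus strand) was at 6.99, 6.55 and 7.17 CPM in shCtrl and at 6.42, 6.80 and 7.01 CPM in shHES4. The libraries labelled shHES1 had 9.11, 6.40 and 8.32 CPM, of which only 6.40 lay below the controls. The averaged log2 fold change was 0.09 ± 0.11 (edgeR quasi-likelihood adjusted p = 0.744). The HES1 transcript thus goes against the label of the shHES1 libraries, and every direction drawn from shHES1 below is that of the libraries so labelled. Of 9 tested genes in a list of the HES and HEY family together with BHLHE40 and BHLHE41, HES4 was the 1 that passed.

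**Figure D1:**
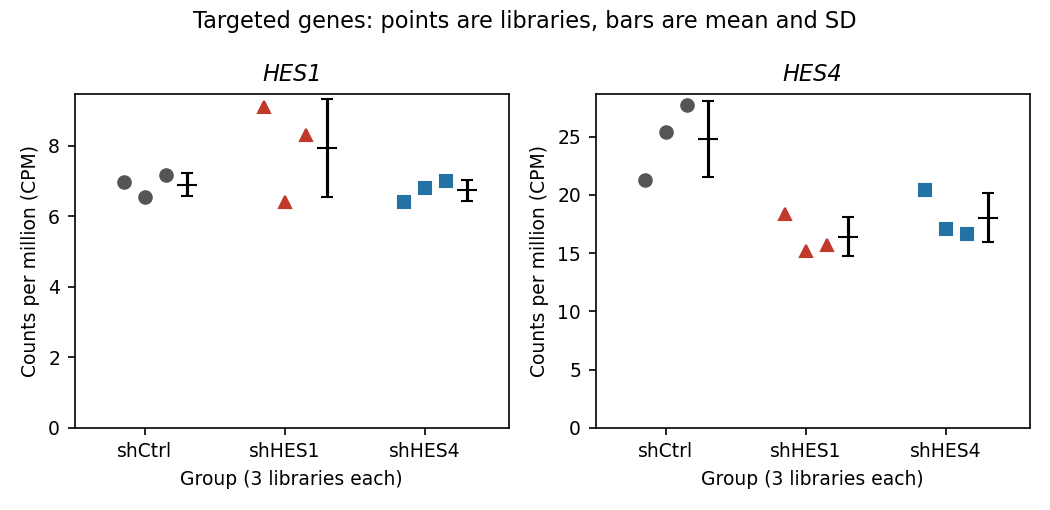
HES1 and HES4 transcript in CPM for each library, by group, with the group mean and SD as bars. The 3 shCtrl libraries of HES4 sit above all 6 hairpin libraries, while HES1 overlaps between the groups.

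The promoters of the genes followed most closely below are shown here with the motifs that the HES family binds. Each window runs from 250 bases before to 50 bases after the RefSeq start on GRCh38.p14, 5′ to 3′ on the gene's strand, and capitals mark an N-box (CACNAG) or class C site (CACGNG) read on either strand. HES4 (chr1:1000048-1000347, minus) is shown as the targeted gene that fell, and its window holds neither motif. DUOX2 (chr15:45114123-45114422, minus) has 1 class C site, in a window of which 253 bases also lie in the promoter window of DUOXA2 on the other strand. LRP11 (chr6:149864310-149864609, minus), the largest averaged fall among the shared genes of at least 5 CPM named here, has 1 N-box. SERPINB3 (chr18:63661844-63662143, minus) and SERPINB4 (chr18:63644207-63644506, minus) have 1 N-box each, and their windows are identical at 296 of 300 positions (98.7%).
HES4: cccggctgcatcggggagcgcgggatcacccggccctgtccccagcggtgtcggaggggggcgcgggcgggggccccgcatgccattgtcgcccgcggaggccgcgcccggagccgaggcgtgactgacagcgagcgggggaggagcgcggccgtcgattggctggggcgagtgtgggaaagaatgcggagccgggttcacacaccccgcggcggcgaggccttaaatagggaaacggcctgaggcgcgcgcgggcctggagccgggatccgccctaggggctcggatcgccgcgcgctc
DUOX2: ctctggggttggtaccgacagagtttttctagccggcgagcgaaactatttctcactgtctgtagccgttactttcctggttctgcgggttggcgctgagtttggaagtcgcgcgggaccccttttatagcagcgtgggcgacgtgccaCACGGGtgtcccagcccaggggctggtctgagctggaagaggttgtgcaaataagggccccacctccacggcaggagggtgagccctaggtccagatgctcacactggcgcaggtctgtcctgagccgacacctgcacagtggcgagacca
LRP11: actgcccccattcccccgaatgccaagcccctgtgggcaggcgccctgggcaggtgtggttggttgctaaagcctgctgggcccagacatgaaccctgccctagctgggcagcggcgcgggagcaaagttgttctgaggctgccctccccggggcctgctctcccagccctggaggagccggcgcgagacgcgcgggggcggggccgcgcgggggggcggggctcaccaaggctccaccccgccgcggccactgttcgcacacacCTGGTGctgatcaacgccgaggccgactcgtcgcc
SERPINB3: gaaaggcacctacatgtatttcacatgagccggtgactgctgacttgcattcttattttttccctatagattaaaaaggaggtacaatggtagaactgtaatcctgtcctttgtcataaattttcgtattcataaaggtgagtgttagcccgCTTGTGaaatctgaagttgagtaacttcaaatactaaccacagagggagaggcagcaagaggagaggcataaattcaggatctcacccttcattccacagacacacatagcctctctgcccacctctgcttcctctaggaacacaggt
SERPINB4: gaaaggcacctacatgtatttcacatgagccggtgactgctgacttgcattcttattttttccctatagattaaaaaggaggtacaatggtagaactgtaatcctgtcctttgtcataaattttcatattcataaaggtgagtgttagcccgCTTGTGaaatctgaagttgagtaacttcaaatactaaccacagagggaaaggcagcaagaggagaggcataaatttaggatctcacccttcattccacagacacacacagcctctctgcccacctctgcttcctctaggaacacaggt

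Over all shared genes with a promoter in the RefSeq table, an N-box was present in 67 of 205 (32.7%) of those higher and 52 of 181 (28.7%) of those lower, against 34.8% of 11912 promoters of tested genes and 38.0% of 27305 promoters in the table. Class C sites stood in 37.6% and 41.4%, against 40.9% of the tested genes and 30.4% of all. The E-box (CANNTG), which can overlap a class C site, stood in 56.6% and 55.8%, against 60.8% and 68.9%. A match or its absence describes only the letters of the window.

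The 970 genes called in the averaged contrast are 5.74% of those tested, 523 higher (3.09%) and 447 lower (2.64%). On their own, 1644 genes (9.73%) were called for shHES1 against shCtrl and 1004 (5.94%) for shHES4, 2 comparisons that share the control libraries. Directly against each other the HES hairpin groups differed in 2546 genes (15.1%). Of the 970 genes, 131 had opposite signs in the hairpin groups and 325 had the same sign with overlapping libraries, leaving the 514 shared (3.04% of genes tested; 1.64% higher and 1.4% lower). DKK1, a secreted Wnt antagonist, is an averaged call of the first kind: it was at 308 to 318 CPM in shCtrl, 187 to 191 in shHES1 and 378 to 393 in shHES4. A further 639 genes had all 6 hairpin libraries on 1 side without passing the test, out of 1153 (6.82%) with that pattern. On the first principal component of log2 CPM (22.3% of the variance) shHES1 and shHES4 stood at opposite ends with shCtrl between them, and on the second (17.5%) the shCtrl libraries, at 14.3 to 24.2, lay apart from all 6 hairpin libraries, at -13.4 to -5.8.

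These counts depend on single libraries, most of all on shCtrl replicate 2. Without shCtrl replicate 2 the averaged contrast called 477 genes and 323 were shared. Without shCtrl replicate 3, whose mitochondrial share was the highest at 7.16%, the contrast called 867 and 579 were shared. Without shHES1 replicate 3 the contrast called 695 and 399 were shared. Leaving out a library also eases the rule that no hairpin library overlaps a control. With total counts in place of scaled library sizes the shared genes split into 378 higher and 166 lower. When the 6 hairpin libraries were fitted as 1 group, so that their differences counted as spread, 86 genes (0.509%) were called by the edgeR quasi-likelihood test, 53 higher (0.314%) and 33 lower (0.195%), all of them among the 514 shared, and 1999 genes had an unadjusted p under 0.05. That fit uses the same values that chose the shared genes. It takes 6 libraries of 2 hairpins as replicates of 1 condition, with 7 residual degrees of freedom. Passing it therefore describes the same libraries and is not independent support for a shared effect. For some genes below the adjusted p of that fit is given too, marked "as 1 group". On the edge of the threshold stood NUSAP1 and UQCRC2, each with an adjusted p of 0.0499 by the edgeR quasi-likelihood test and all 6 hairpin libraries lower. KPNB1 (0.05003) and SUV39H1 (0.0501) lay just beyond it with the same arrangement of libraries.

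Shared changes were small. The median fold was 1.21 among the genes that rose (log2 0.27) and 1.13 among those that fell (log2 -0.17), over a median of -0.0016 for all genes. An averaged change of at least 1.5-fold was seen in 44 genes that rose and 17 that fell, of which 13 and 8 had a mean of at least 5 CPM. Shared genes had a higher median level (31.4 CPM higher, 70.0 CPM lower) than all genes tested (17.9 CPM). Their share of protein-coding genes was 93.9% and 96.2% against 82.0%. Low-level genes sat mostly among the rises, with 43 of the 52 shared genes under 5 CPM. The filter can keep such a gene through the libraries where it is high, and 6 of the 9 carry HES hairpins. This split is therefore no result about the genes. Without the filter the shared genes were 262 higher and 272 lower, and the part of the filter was not tested.

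COL6A2, a chain of collagen VI, was at 3.08, 4.48 and 3.58 CPM in shCtrl, 8.53, 8.55 and 9.45 in shHES1 and 5.09, 6.45 and 6.40 in shHES4. The groups did not overlap, and the averaged log2 fold change was 0.97 ± 0.13 (edgeR quasi-likelihood adjusted p = 0.000126). COL6A1, its neighbour on chromosome 21 that encodes a partner chain, went from 14.8 to 15.9 CPM in shCtrl to 23.6 to 24.99 in shHES1 and 18.6 to 20.8 in shHES4 (averaged log2 0.53 ± 0.06). CEMIP, a hyaluronan-binding protein needed for hyaluronan breakdown, was at 5.51, 5.95 and 5.75 CPM in shCtrl, 13.7, 13.4 and 12.7 in shHES1 and 8.19, 8.37 and 7.38 in shHES4. Its averaged log2 rise of 0.84 ± 0.08 did not pass as 1 group (edgeR quasi-likelihood adjusted p = 0.0952). HAS2, a hyaluronan synthase, was at 20.4 to 20.8 CPM in shCtrl and at 24.02 to 27.96 in the 6 hairpin libraries (averaged log2 0.35 ± 0.05). The genes for making and for breaking down hyaluronan were thus both higher.

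ITGB3, the integrin beta 3 subunit, was at 14.2, 16.5 and 14.5 CPM in shCtrl, 31.9, 31.8 and 31.4 in shHES1 and 19.2, 20.5 and 22.6 in shHES4, an averaged log2 rise of 0.77 ± 0.06 that did not pass as 1 group (edgeR quasi-likelihood adjusted p = 0.0638). ITGA5, a fibronectin receptor subunit, had 156 to 163 CPM in shCtrl and 190 to 201 in the hairpin libraries, and its averaged log2 rise of 0.29 ± 0.03 held with the hairpins as 1 group (edgeR quasi-likelihood adjusted p = 0.00136). NT5E, the surface enzyme that makes adenosine from AMP, went from 87.1 to 92.9 CPM in shCtrl to 111 to 121 in the hairpin libraries (0.37 ± 0.03; as 1 group, adjusted p = 0.000647). NRP2, a semaphorin and VEGF coreceptor, had 106 to 113 CPM in shCtrl and 127 to 135 in the hairpin libraries (0.25 ± 0.03). For ITGA5 the shHES1 minus shHES4 difference had a 95% interval of -0.06 to 0.08 on the log2 scale, and for NT5E of -0.05 to 0.11.

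DUOX2, an NADPH oxidase that releases hydrogen peroxide at epithelial surfaces, was at 5.81, 7.52 and 7.54 CPM in shCtrl, 11.8, 11.3 and 12.2 in shHES1 and 12.7, 13.7 and 12.6 in shHES4. Every hairpin library was above every control, with an averaged log2 fold change of 0.83 ± 0.09 (edgeR quasi-likelihood adjusted p = 2.1e-05; as 1 group, 0.00205). DUOXA2, its maturation factor, is transcribed from the opposite strand beside it and had 0.633 to 0.949 CPM in shCtrl and 1.58 to 2.71 in the hairpin libraries (averaged log2 1.37 ± 0.22). The strand setting of the counting is unknown, so reads from where these genes overlap cannot be assigned, and the level of DUOXA2 is low. LCN2, a siderophore-binding protein that withholds iron from bacteria, was at 22.8, 24.5 and 23.0 CPM in shCtrl, 33.7, 34.2 and 32.6 in shHES1 and 35.0, 32.5 and 33.9 in shHES4. Its hairpin groups lay within the same range (shHES1 minus shHES4 -0.01, 95% interval -0.12 to 0.10), and the averaged rise of 0.52 ± 0.05 held with the hairpins as 1 group (edgeR quasi-likelihood adjusted p = 0.000278).

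CEACAM1, an epithelial adhesion and inhibitory receptor, was at 52.0, 52.5 and 56.4 CPM in shCtrl, 78.3, 80.4 and 73.4 in shHES1 and 83.9, 78.1 and 80.6 in shHES4. It had the smallest adjusted p among the rises when the hairpins were fitted as 1 group (0.000189 by the edgeR quasi-likelihood test), with an averaged log2 fold change of 0.56 ± 0.04. S100A9, a calcium-binding alarmin subunit, was at 10.3, 11.9 and 12.8 CPM in shCtrl, 24.7, 22.8 and 25.5 in shHES1 and 16.1, 16.6 and 15.9 in shHES4, and did not pass as 1 group (edgeR quasi-likelihood adjusted p = 0.0603). KRT19, a keratin of simple epithelia, was at 35.4 to 38.5 CPM in shCtrl, 59.4 to 64.7 in shHES1 and 50.4 to 57.2 in shHES4 (averaged log2 0.64 ± 0.05). Among genes under 5 CPM, SLC6A14, an amino acid transporter, rose from 0.417 to 0.507 CPM to 1.35 to 2.48. PIGR, the receptor that carries IgA across epithelia, rose from 0.114 to 0.380 CPM to 0.527 to 1.56, a call lost without shCtrl replicate 1.

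SERPINB3 and SERPINB4, neighbouring genes on chromosome 18 for squamous cell carcinoma antigens that inhibit proteases, both rose. SERPINB3 was at 16.2, 16.05 and 16.6 CPM in shCtrl, 34.1, 34.4 and 33.6 in shHES1 and 26.9, 25.9 and 23.1 in shHES4, an averaged log2 rise of 0.85 ± 0.06 (edgeR quasi-likelihood adjusted p = 1.08e-07). SERPINB4 was at 6.76 to 7.79 CPM in shCtrl, 11.9 to 14.7 in shHES1 and 8.45 to 9.63 in shHES4, and did not pass as 1 group (edgeR quasi-likelihood adjusted p = 0.132). These are near-identical copies, so the authors' counting may have split reads between them. SERPINB7, the next tested gene of the cluster and less alike, had 6.23 to 6.29 CPM in shCtrl, 7.72 to 8.53 in shHES1 and 8.73 to 9.82 in shHES4 (averaged log2 0.47 ± 0.08).

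**Figure D2:**
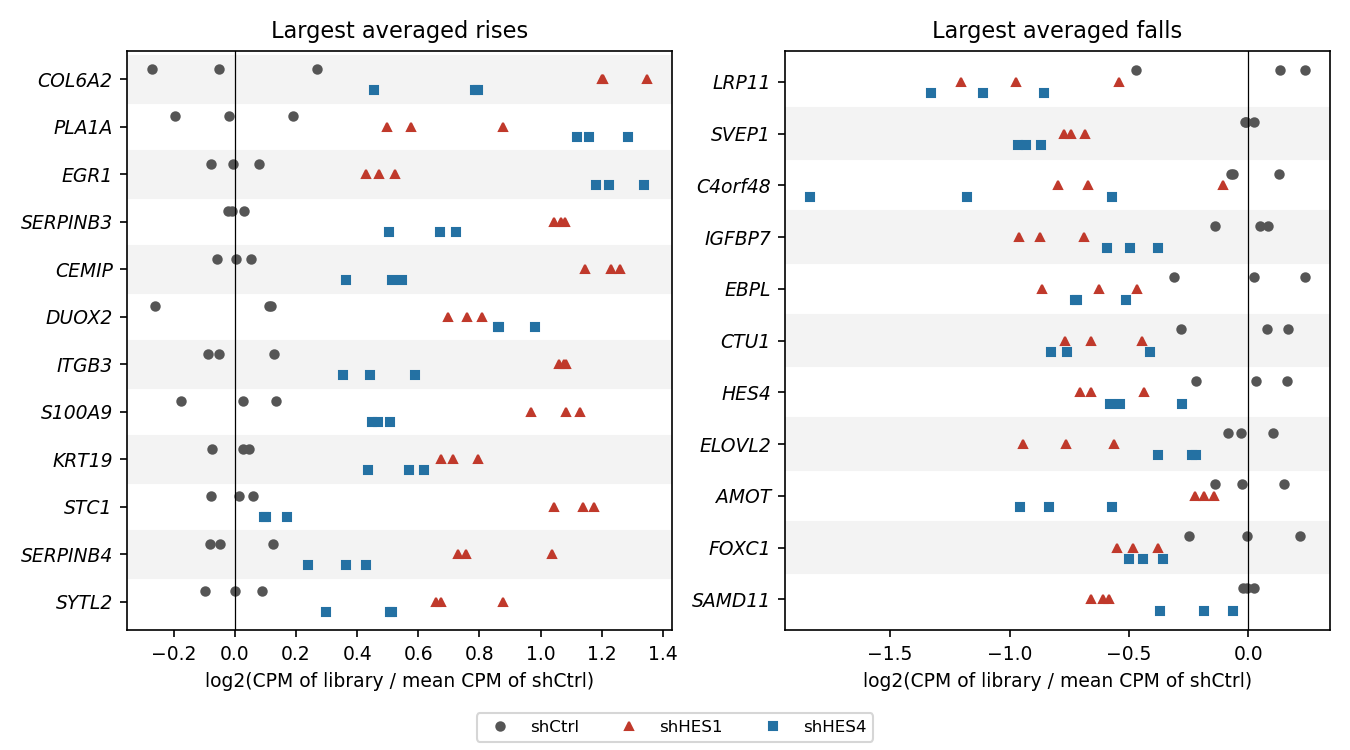
Log2 ratio of each library's CPM to the shCtrl mean for the 12 shared genes with the largest averaged rises and for most of the 12 with the largest averaged falls, at 5 CPM or more. Points are libraries, with 3 per group; the control points lie apart from all 6 hairpin points in every gene, as the selection requires, and STC1, CEMIP, ITGB3 and EGR1 show unequal steps for shHES1 and shHES4.

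C1R, which starts the classical complement cascade, had 195, 205 and 210 CPM in shCtrl, 257, 238 and 244 in shHES1 and 234, 237 and 231 in shHES4 (averaged log2 0.24 ± 0.03). Its neighbour C1S, the protease that C1R activates, rose by 0.17 ± 0.03, and CFB, a protease of the alternative pathway, by 0.24 ± 0.03. Neither passed as 1 group (edgeR quasi-likelihood adjusted p = 0.124 and 0.0603). CP, the copper oxidase ceruloplasmin, went from 49.6 to 53.5 CPM in shCtrl to 76.9 to 79.8 in shHES1 and 62.8 to 65.6 in shHES4. C3, the central complement component, also passed in the average (0.22 ± 0.02) but was not shared: its shHES4 values of 726 to 745 CPM overlapped the controls at 706 to 741 CPM.

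GBP1 and GBP3, adjacent genes for interferon-inducible guanylate-binding proteins, rose by 0.37 ± 0.05 and 0.40 ± 0.07 on the log2 scale. IFI16, a sensor of DNA, was at 58.2, 56.0 and 66.0 CPM in shCtrl and at 74.2 to 82.1 in the 6 hairpin libraries (as 1 group, edgeR quasi-likelihood adjusted p = 0.0121). CXCL11, an interferon-inducible chemokine, had 8.78 to 11.3 CPM in shCtrl and 13.4 to 16.6 in the hairpin libraries. LGALS3BP, a secreted scavenger receptor family protein, was at 406, 401 and 421 CPM in shCtrl, 516, 515 and 500 in shHES1 and 557, 532 and 539 in shHES4 (averaged log2 0.36 ± 0.03; as 1 group, adjusted p = 0.000647). HLA-B, a class I antigen-presenting molecule, rose less in shHES1 (149 to 154 CPM) than in shHES4 (211 to 224 CPM) over shCtrl at 127 to 134 CPM, and did not pass as 1 group (edgeR quasi-likelihood adjusted p = 0.155). MR1, which presents vitamin metabolites to innate-like T cells, went from 20.5 to 21.7 CPM to 24.3 to 29.3 CPM.

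Most of the core interferon-induced genes did not share this pattern. Of 40 interferon response genes tested, 21 passed higher in the averaged contrast and 0 lower. Over all genes tested, 3.09% passed higher and 1.64% were shared higher. Yet of the 21 only 2, IFITM2 and IFITM3 (averaged log2 0.19 and 0.26), were shared. With the hairpins as 1 group 0 of the 40 were called, which is near the 0.509% of all genes called by that fit. The median log2 fold change of the list was -0.10 in shHES1 and 0.35 in shHES4 and the direct contrast of shHES1 and shHES4 called 36 of the 40. IFIT2, an antiviral RNA-binding protein, was at 508 to 517 CPM in shCtrl, 478 to 494 in shHES1 and 683 to 738 in shHES4. Without shCtrl replicate 2, 12 of the 40 passed higher.

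Of 30 NF-kB and inflammatory genes, 7 rose in the average and 0 fell, with TNFAIP3, IL6, LCN2 and CFB shared. Across all genes tested, 3.09% rose in the average and 1.64% were shared higher. TNFAIP3, a brake on NF-kB signalling, had 82.8, 83.6 and 83.6 CPM in shCtrl, 103, 105 and 105 in shHES1 and 93.2, 96.7 and 103 in shHES4 (averaged log2 0.28 ± 0.03; as 1 group, edgeR quasi-likelihood adjusted p = 0.016). TNFSF15, a TNF family ligand, had 9.25 to 9.59 CPM in shCtrl and 12.8 to 14.7 in the hairpin libraries. The 20 tested TGF-beta genes had 6 higher and 0 lower, with 5 shared: the matrix protein TGFBI, the TGF-beta binding protein LTBP1, the matricellular CCN2 and the receptors TGFBR1 and TGFBR2. TGFBI was at 721, 751 and 776 CPM in shCtrl, 954, 938 and 948 in shHES1 and 878, 863 and 880 in shHES4, and held as 1 group (adjusted p = 0.00925 by the edgeR quasi-likelihood test).

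Of 21 immediate early genes 6 rose and 1 fell in the average, but EGR1 and JUN alone were shared. For this list and the 2 below, the shares of all genes were 3.09% higher, 2.64% lower, 1.64% shared higher and 1.4% shared lower. EGR1, a growth-factor-induced transcription factor, was at 25.3, 24.1 and 26.9 CPM in shCtrl, 35.3, 36.6 and 34.2 in shHES1 and 59.4, 57.7 and 64.3 in shHES4 (averaged log2 0.86 ± 0.05; edgeR quasi-likelihood adjusted p = 2.65e-08; as 1 group, 0.0894). FOS, its companion in the early response, was at 65.7 to 76.0 CPM in shCtrl and shHES1 together and at 111 to 117 CPM in shHES4. Among 21 collagen genes, 8 rose and 0 fell, with COL6A1, COL6A2, COL4A1 and COL4A2 shared. The 23 MMP, ADAMTS and TIMP genes had 9 higher and 1 lower, of which 5 and 1 were shared, and without shCtrl replicate 2 the count was 3 higher and 1 lower. ADAMTS9, a called member that is not shared, had 33.2, 36.99 and 34.9 CPM in shHES1 and medians of 16.2 CPM in shHES4 and 17.2 CPM in shCtrl.

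Other shared rises did not fall into these lists. PROS1, the anticoagulant protein S, went from 26.6 to 28.6 CPM in shCtrl to 37.0 to 40.5 in the hairpin libraries (averaged log2 0.48 ± 0.04; as 1 group, edgeR quasi-likelihood adjusted p = 0.000647). KCNMA1, the pore of the calcium-activated BK potassium channel, went from 14.7 to 15.8 CPM to 20.3 to 21.6 CPM (0.46 ± 0.05). HMGA2, a chromatin protein of fetal tissues and many carcinomas, went from 36.0 to 38.7 CPM to 44.9 to 48.1 CPM (0.33 ± 0.04). CHGB, a secretory granule protein, was at 23.2 to 25.3 CPM in shCtrl, 30.8 to 32.1 in shHES1 and 37.2 to 39.2 in shHES4. DKK3 of the Dickkopf family had 17.6 ± 0.699 CPM (SD, n = 3) in shCtrl and 21.3 to 22.4 in the hairpin libraries, while its relative DKK1 moved in opposite ways in the hairpin groups. PLA1A, a phospholipase that acts on phosphatidylserine, was at 3.33 to 4.35 CPM in shCtrl, 5.39 to 7.01 in shHES1 and 8.28 to 9.29 in shHES4.

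Among the shared genes of at least 5 CPM named here, the largest averaged fall was that of LRP11, a transmembrane protein of the LDL receptor-related family. It was at 40.9, 62.1 and 66.7 CPM in shCtrl, 38.9, 24.5 and 28.8 in shHES1 and 31.3, 26.2 and 22.5 in shHES4. Its controls were far apart, and shCtrl replicate 1 lay only just above the highest hairpin library. The averaged log2 fold change was -0.98 ± 0.14 (edgeR quasi-likelihood adjusted p = 0.00031; as 1 group, 0.0205). SVEP1, a large extracellular adhesion protein, was tighter, at 12.5, 12.2 and 12.2 CPM in shCtrl, 7.37, 7.67 and 7.23 in shHES1 and 6.46, 6.75 and 6.31 in shHES4. Its log2 fold change was -0.83 ± 0.07, with an adjusted p of 0.000647 as 1 group by the same test. IGFBP7, a secreted binding protein of insulin-like growth factors, was at 36.4, 41.5 and 42.5 CPM in shCtrl, 24.9, 20.7 and 21.9 in shHES1 and 30.8, 28.5 and 26.6 in shHES4.

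EBPL, a relative of the sterol isomerase EBP, was at 21.5, 31.4 and 27.1 CPM in shCtrl, 19.3, 17.3 and 14.6 in shHES1 and 18.7, 16.2 and 16.2 in shHES4. CTU1, which thiolates transfer RNA wobble bases, was at 8.96, 11.5 and 12.2 CPM in shCtrl and at 6.14 to 8.19 in the hairpin libraries. In HES4, LRP11, EBPL, CTU1 and the transcription factor gene FOXC1 (13.9, 16.5 and 19.2 CPM in shCtrl) the lowest control was shCtrl replicate 1. MAL2, a transcytosis protein of epithelia, was at 90.8 to 93.5 CPM in shCtrl, 73.0 to 75.5 in shHES1 and 70.1 to 72.1 in shHES4 and held as 1 group (edgeR quasi-likelihood adjusted p = 0.000647). C4orf48 (averaged log2 -0.80 ± 0.18) and AMOT, an angiomotin that binds YAP (-0.48 ± 0.10), lost their calls without shCtrl replicate 2.

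Of 16 heat shock genes tested, 4 fell and 12 did not pass, and all 4 were shared, against a background of 2.64% lower and 1.4% shared lower. The list had a median log2 fold change of -0.06 in the average. HSPA1B, the inducible HSP70 chaperone, was at 307, 324 and 329 CPM in shCtrl, 259, 254 and 257 in shHES1 and 262, 255 and 250 in shHES4. The averaged log2 fold change was -0.32 ± 0.03 (edgeR quasi-likelihood adjusted p = 2.09e-06; as 1 group, 0.000647), and the shHES1 minus shHES4 interval was -0.06 to 0.08. HSPA1A, its near-identical neighbour, fell by 0.21 ± 0.03, and reads of the pair may have been split between them by the counting. HSP90AA1, the inducible cytosolic HSP90, went from 2197 to 2316 CPM in shCtrl to 1956 to 2049 CPM in the hairpin libraries (-0.17 ± 0.02). HSP90AB1 had the smallest change, -0.07 ± 0.02, and lost its call under 12 of the 18 alternatives tried.

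Of 30 NRF2 target genes, which serve redox balance and detoxification, 13 fell and 0 rose in the average, against 2.64% of all genes lower. Of these 7 were shared, against 1.4% of all genes, and the median log2 fold change of the list was -0.14 in shHES1 and -0.03 in shHES4. As 1 group, 2 of the 30 were called, against 0.509% of all genes. FTL, the ferritin light chain, was at 8323, 8316 and 8501 CPM in shCtrl, 6462, 6212 and 6318 in shHES1 and 8105, 7746 and 7777 in shHES4, and did not pass as 1 group (edgeR quasi-likelihood adjusted p = 0.261). AKR1B10, an aldo-keto reductase, was at 1135 to 1170 CPM in shCtrl, 919 to 936 in shHES1 and 1029 to 1075 in shHES4 (as 1 group, adjusted p = 0.0952 by the edgeR quasi-likelihood test). AKR1C2, a related reductase, had 1166 to 1216 CPM in shCtrl, 1056 to 1100 in shHES1 and 961 to 1019 in shHES4. TKT, transketolase of the pentose phosphate pathway, fell by 0.14 ± 0.02. FTL and AKR1B10 fell more in shHES1, and AKR1C2 more in shHES4.

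FASN, fatty acid synthase, was at 811, 824 and 882 CPM in shCtrl, 753, 725 and 719 in shHES1 and 742, 702 and 761 in shHES4 (averaged log2 -0.19 ± 0.03; as 1 group, edgeR quasi-likelihood adjusted p = 0.035). Of 16 fatty acid synthesis genes, 6 fell and 1, ACSL5, rose. Over all genes tested, 2.64% fell, 3.09% rose and 1.4% were shared lower. Of 25 sterol synthesis genes 4 fell and 0 rose, all 4 shared, EBP, HMGCS1 and MVK among them, but 1 passed without shCtrl replicate 2 and 2 passed with total counts. PFKFB3, a regulator of glycolytic flux, was at 247 to 250 CPM in shCtrl, 215 to 217 in shHES1 and 210 to 224 in shHES4. PKM and the adjacent hexokinase genes HK1 and HKDC1 fell by 0.11, 0.11 and 0.14, while the list of 35 hypoxia and glycolysis genes was mixed, with 6 higher and 5 lower. CS, the citrate synthase gene, fell from 323 to 335 CPM to 250 to 254 in shHES1 and 289 to 295 in shHES4 (as 1 group, edgeR quasi-likelihood adjusted p = 0.0521).

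Several lists gave few shared calls. Of 30 G1/S and replication genes 8 fell and 0 rose, with MCM2, POLA1 and TYMS shared, and 3 passed without shCtrl replicate 2. Across all genes tested, 2.64% fell in the average and 1.4% were shared lower. Of 36 Notch receptors, ligands and regulators, 0 were shared, and the 2 averaged falls, NOTCH1 (-0.18 ± 0.04) and NUMBL (-0.38 ± 0.10), both lost their call without shCtrl replicate 2 or replicate 3. Of 15 genes of the RNA interference machinery, 1 passed in the average, TNRC6C, at -0.54 in shHES1 and -0.19 in shHES4 on the log2 scale. The called shares of the Notch and RNA interference lists lie near the 5.74% of all genes called, and only 3.04% of all genes were shared. Of 13 mitochondrially encoded protein-coding genes and 19 circadian clock genes, 0 passed by the edgeR quasi-likelihood test, against 5.74% of all genes. MT-RNR2, the large-subunit ribosomal RNA of mitochondria, is in neither list and was the shared fall with the highest level, at 10237, 10297 and 11384 CPM in shCtrl, 10070, 9867 and 9703 in shHES1 and 8660, 8315 and 8408 in shHES4. Its averaged log2 fold change was -0.22 ± 0.03 (edgeR quasi-likelihood adjusted p = 0.000146; as 1 group, 0.194), and the highest control was shCtrl replicate 3, the library with the highest mitochondrial share. By the same test 1 of 58 cytosolic ribosomal protein genes passed (RPS2, -0.12 ± 0.02), a share below the 2.64% of all genes that were lower. The count of lower oxidative phosphorylation genes, 5 of 46, went from 1 without shCtrl replicate 2 to 18 without shCtrl replicate 3.

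**Figure D3:**
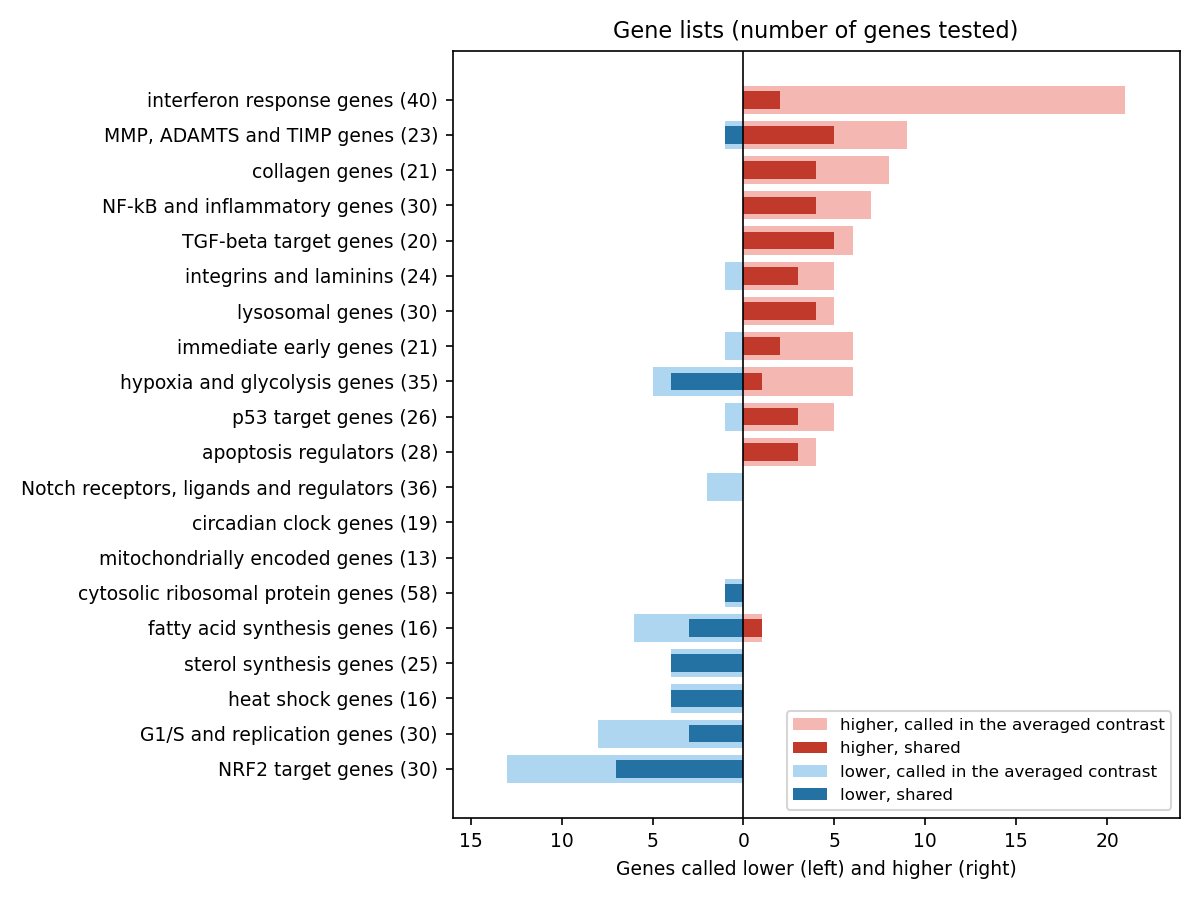
Number of genes of 20 lists called higher (right) and lower (left) in the averaged contrast, with the shared genes as darker bars and the number tested in brackets. Interferon response genes have 21 calls and 2 shared genes, while heat shock and sterol synthesis genes have 4 calls each that are all shared.

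How alike the hairpin groups were varied among the shared genes. The direct contrast of shHES1 and shHES4, which does not use the shCtrl means, called 125 of the 514 (24.3%), against 15.1% of all genes. The higher level of shared genes, given above, moves with this share, and its part in the result was not tested. Among genes that rose, 46 of the called differences were larger in shHES1 and 25 in shHES4, and among genes that fell the fall was larger in shHES1 for 38 and in shHES4 for 16. Taken alone, 124 of the 278 higher genes passed in each group, 99 passed for shHES1 only, 50 for shHES4 only and 5 for neither. The corresponding counts among the 236 lower genes were 85, 88, 50 and 13.

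STC1, the secreted glycoprotein stanniocalcin, had the largest of these differences. It was at 39.5, 42.1 and 43.4 CPM in shCtrl, 91.8, 94.1 and 86.0 in shHES1 and 44.5, 46.8 and 44.7 in shHES4, so that the shHES4 libraries lay just above the controls. Its averaged log2 rise of 0.62 ± 0.04 was thus larger in shHES1, and it failed as 1 group (edgeR quasi-likelihood adjusted p = 0.294). PAK3, a kinase downstream of RAC and CDC42, had the same form, with 22.9 to 24.9 CPM in shCtrl, 41.2 to 45.7 in shHES1 and 24.9 to 25.5 in shHES4. EGR1 leaned the other way, with a shHES1 minus shHES4 difference of -0.77 ± 0.05. At the other end, EBPL differed by 0.01 (95% interval -0.26 to 0.27), CTU1 by 0.04 (-0.26 to 0.33), DUOX2 by -0.14 (-0.35 to 0.06) and LRP11 by 0.21 (-0.16 to 0.58). A test of a difference that failed does not show that the hairpins acted alike.

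**Figure D4:**
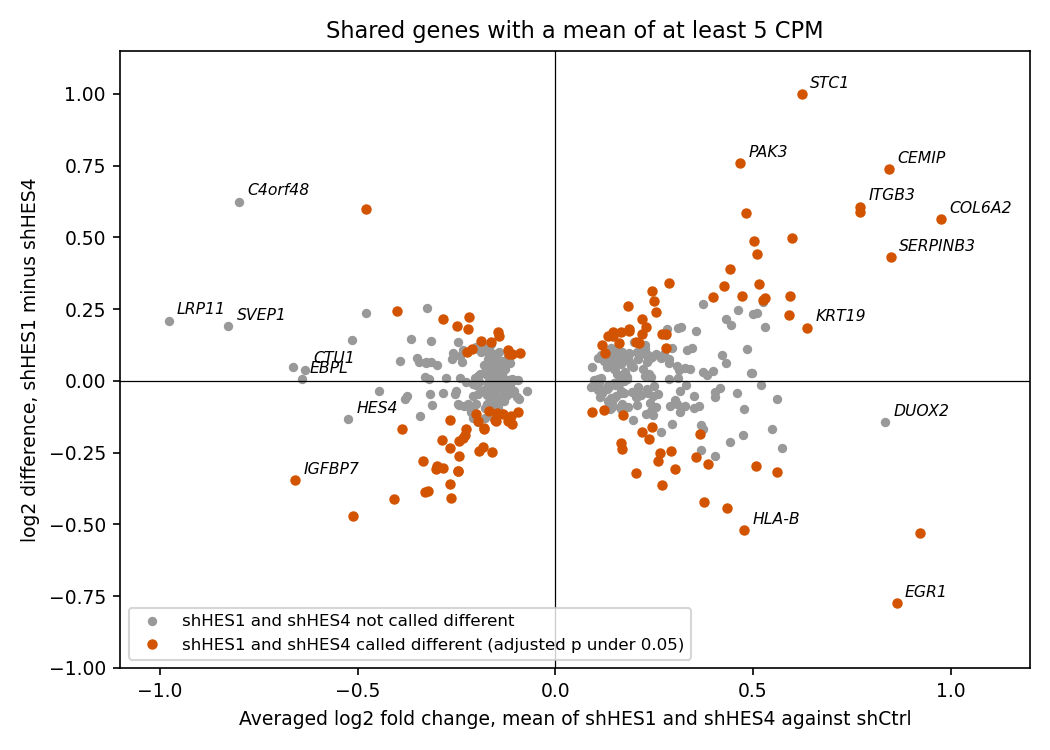
Averaged log2 fold change (x) against the log2 difference of shHES1 minus shHES4 (y) for shared genes with a mean of at least 5 CPM, each point a gene. Orange points are called in the direct contrast; STC1 at 1.00 and EGR1 at -0.77 lie farthest from 0 on the y axis, and HES4, DUOX2, EBPL and CTU1 lie near it.

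Some shared genes stand next to each other on a chromosome. Of 16658 adjacent pairs of tested genes, 23 were both shared and moved the same way, 13 higher and 10 lower, in GENCODE 29 order. Besides the pairs above they included HLA-C with HLA-B, COL4A1 with COL4A2, which face away from each other on chromosome 13, and HKDC1 with HK1, 2425 bases apart on chromosome 10. Pairs that overlap, such as COL4A1 and COL4A2, share reads where counting ignores strand.

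A few genes were present almost only in the control libraries. IRS4, an insulin receptor substrate on the X chromosome (108732482 to 108736409, minus strand), had 126, 117 and 107 counts in shCtrl, 0, 4 and 0 in shHES1 and 0, 1 and 1 in shHES4. The ratio of shCtrl to shHES1, adjusted for library size, was 93.0 (95% counting interval 36.0 to 343), and to shHES4 164 (45.0 to 1358). CDKN2A, the cell-cycle inhibitor locus on chromosome 9 (21967753 to 21995301, minus strand), had 13, 27 and 21 counts in shCtrl, 1, 0 and 3 in shHES1 and 0, 1 and 0 in shHES4. The ratios were 16.2 (6.02 to 61.4) and 57.1 (9.87 to 2293). As background, A549 is known for a homozygous deletion at CDKN2A, and IRS4 is known to be abundant in HEK293, a human embryonic kidney line. ADAMTS1, a secreted protease, also fell at low level, from 2.75 to 3.80 CPM in shCtrl to 0.487 to 1.19 in the hairpin libraries.

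**Figure D5:**
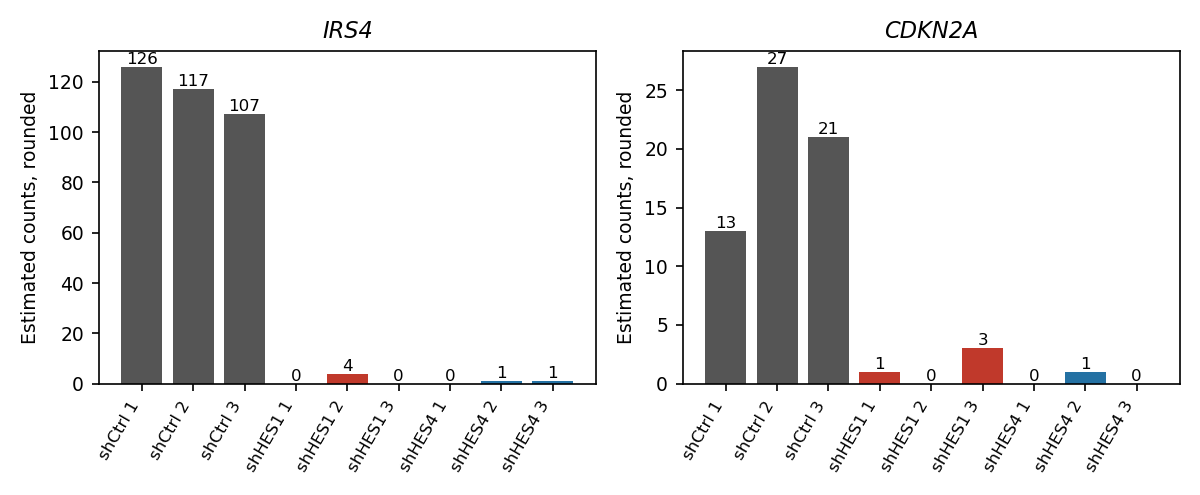
Rounded estimated counts of IRS4 and CDKN2A in each of the 9 libraries. The shCtrl libraries hold 107 to 126 and 13 to 27 counts, and the hairpin libraries 0 to 4.

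Markers of other cells were read beside these genes. Of 12 HEK293-type markers 7 were tested and 2, IRS4 and CDKN2A, passed lower, against 2.64% of all genes. The summed level of the 12 was 38.0 to 41.1 CPM in shCtrl, 40.5 to 41.0 in shHES1 and 30.4 to 31.4 in shHES4, most of it NEFL, which did not pass, and BEX1 was at 0 counts in all libraries. Fibroblast markers summed to 13.8 to 23.0 CPM in shCtrl, 21.01 to 21.12 in shHES1 and 10.9 to 13.8 in shHES4. Leukocyte markers summed to 86.3 to 100, 83.3 to 87.5 and 113 to 115 CPM in the same order, most of it from the single gene CD68. Endothelial markers summed to 1.18 to 2.19 CPM in all. In these 3 lists only 4, 4 and 1 genes were tested, and 0 passed in the averaged contrast. With so few tested this is near the 5.74% of all genes called, and 1 fibroblast marker passed without shCtrl replicate 1. PTPRC, CD3E, CD3D, CD52 and POSTN were at 0 or 1 count per group. Of the 8 markers of A549 and lung epithelium 6 were tested and 3 passed lower, AKR1B10, AKR1C1 and KRT18, against 2.64% of all genes. KRT8 and CDH1, which did not pass, were abundant. EPCAM did not pass either and was low, at 99 to 176 counts per group. NKX2-1 and SFTPC were near 0 with at most 6 counts per group. In bulk RNA, fewer cells of a type and less RNA per cell cannot be told apart, and the part of IRS4- and CDKN2A-expressing material in the shared falls was not tested.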

How the data were processed

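RNA sequencing of 9 A549 libraries was analysed, 3 each labelled shCtrl, shHES1 and shHES4 in the sample titles. The authors deposited 1 table of estimated counts for 60664 Ensembl human gene identifiers, of which 35.5% of nonzero values are not whole (tolerance 1e-06). No source used here gives the aligner, counter, strand setting or annotation, and the submitters' processing notes name only mouse builds (GRCm38, mm10). Counts were rounded and genes kept by edgeR's filterByExpr (16903 genes). Libraries were scaled by TMM and the 3 groups fitted together (edgeR 4.0.16, R 4.3.3, quasi-likelihood F test, 6 residual degrees of freedom, biological coefficient of variation 0.0403), with Benjamini-Hochberg adjustment over all genes. The contrast was the mean of shHES1 and shHES4 minus shCtrl. SE is the size of a log2 fold change over the square root of F. CPM use TMM sizes and are not per length. Counting intervals cover counting error only.

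Symbols came from a name table for 42028 identifiers (98.98% of counts), coordinates from GENCODE 29 on GRCh38, promoters from RefSeq on GRCh38.p14. The fit was tested on simulated data. No 2 libraries agreed within sampling noise (chi-square per degree of freedom 2.31 to 6.36 within groups, 5.84 to 12.3 between). Alternatives were other scalings, filters, DESeq2 1.42.0, a replicate block, GC and length correction, 1 hairpin group, and each library left out.

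Members and lists were chosen with earlier results of these data known. Named genes are, among shared genes of at least 5 CPM, the 12 largest rises and falls, the 5 smallest p and 3 highest levels each way, and the 6 largest and 6 smallest hairpin differences, plus up to 4 members of each list; further genes, such as DUOXA2, CEACAM1, CP, IRS4 and CDKN2A, were named after their values were seen. Not all genes the rule takes are not reported here by name.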

Additional observations from a re-analysis of the deposited data

Results flagged for a closer look

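For 51 of the genes named here the levels in shHES1 and shHES4 differed by the edgeR quasi-likelihood test of the direct contrast, adjusted over all genes. Values below are log2 differences of shHES1 minus shHES4.

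Among genes that rose with each hairpin, the level was higher in shHES1 for 14: STC1 (1.00), PAK3 (0.76), CEMIP (0.74), ITGB3 (0.61), S100A9 (0.59), COL6A2 (0.56), SERPINB4 (0.50), SERPINB3 (0.43), TGFBR2 (0.34), CP (0.29), LTBP1 (0.29), COL6A1 (0.28), KRT19 (0.19) and TGFBI (0.12). It was higher in shHES4 for 14: EGR1 (-0.77), PLA1A (-0.53), HLA-B (-0.52), HLA-C (-0.36), ACSL5 (-0.32), CTSB (-0.32), CHGB (-0.30), IFITM3 (-0.28), CCN2 (-0.27), GBP1 (-0.18), JUN (-0.18), CFB (-0.16), C1S (-0.12) and PSAP (-0.11).

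Among genes that fell with each hairpin, the fall was larger in shHES1 for 5: IGFBP7 (-0.35), FTL (-0.32), CS (-0.21), AKR1B10 (-0.19) and MCM2 (-0.17). It was larger in shHES4 for 4: AMOT (0.60), MT-RNR2 (0.22), AKR1C2 (0.11) and HK1 (0.09).

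Genes named here that are not shared differed too. The level was higher in shHES1 for ADAMTS9 (1.14), NEFL (0.56), NUMBL (0.52), C3 (0.39), CDH1 (0.16) and KPNB1 (0.11). It was higher in shHES4 for DKK1 (-1.01), CCNG1 (-0.79), FOS (-0.66), IFIT2 (-0.54), KRT18 (-0.37), AKR1C1 (-0.26), KRT8 (-0.24) and NOTCH1 (-0.23).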

How the results depend on the processing

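The averaged contrast called 970 genes, 514 of them shared, and among the alternatives on all 9 libraries only the fit of the 6 hairpin libraries as 1 group moved these counts by over 1.5 times, to 86 called and 86 shared. That fit counts the difference between the hairpins as spread. The other settings called 833 (replicate block) to 1348 (no filter on low counts). Leaving out 1 library at a time gave 477 to 950 called and 323 to 585 shared, with only shCtrl replicate 2 beyond 1.5 times, and 1775 to 2936 genes in the direct contrast. With total counts the called genes split into 672 higher and 336 lower, against 523 and 447, and the cause was not tested. DESeq2 called 916 genes with 461 shared, and GC and length correction 1236 with 661 shared. Libraries with the same replicate number deviated together no more (correlations -0.0514 to 0.0474) than those with different numbers (-0.0431 to 0.0556). Counting noise enters these correlations, so they cannot exclude a small batch common to a number. The replicate block gave 833 calls and 445 shared genes, and 1022 and 550 with the GC and length correction. HES4 stayed called under all alternatives, at -0.44 to -0.63 without 1 library, and HES1 under none. Of 171 named genes called in the averaged contrast, 59 kept sign and call under all alternatives and 112 lost the call in at least 1, most often in the 1-group fit. Counting depth limits genes under 5 CPM most.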

Other observations

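Of 30 lysosomal genes tested, 5 were higher and 0 lower in the averaged contrast, with CTSB, MAN2B1, PSAP and LIPA shared, and 2 passed without shCtrl replicate 2. Over all genes tested, 3.09% were higher and 1.64% shared higher. CTSB, the protease cathepsin B, was at 1268, 1283 and 1251 CPM in shCtrl, 1299, 1305 and 1316 in shHES1 and 1653, 1639 and 1604 in shHES4. Its averaged log2 rise of 0.20 ± 0.02 was thus mostly that of shHES4. LIPA, the acid lipase, had 119 to 125 CPM in shCtrl and 127 to 141 CPM in the hairpin libraries.

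Of 26 p53 target genes, 5 were higher and 1 lower, with TNFRSF10B, PMAIP1 and BTG2 shared. Across all genes tested, 3.09% were higher, 2.64% lower and 1.64% shared higher. TNFRSF10B, a death receptor for TRAIL, was at 250, 252 and 243 CPM in shCtrl, 274, 264 and 275 in shHES1 and 280, 282 and 282 in shHES4 (averaged log2 0.15 ± 0.03; edgeR quasi-likelihood adjusted p = 0.00144). PMAIP1, the BH3-only protein NOXA, was at 92.9 to 95.3 CPM in shCtrl and 104 to 112 CPM in the hairpin libraries (0.17 ± 0.03). Of 28 apoptosis regulators, 4 were higher and 0 lower, with PMAIP1 and APAF1 among those shared. The call of APAF1 was lost under 11 of the 18 alternatives tried. CCNG1, the p53 target that was lower on average, was at 60.8 to 67.3 CPM in shCtrl, 38.3 to 39.2 in shHES1 and 66.1 to 67.6 in shHES4, and is not shared.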
